A study of Mus musculus with 30 samples.

Results

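Glutathione transferases were examined in mouse kidney through 10 genes of 6 classes: Gsta2, Gsta3 and Gsta4 of the alpha class, Gstm1, Gstm2 and Gstm5 of the mu class, Gstp1 of the pi class, Gstt1 of the theta class, Gstz1 of the zeta class and Gsto1 of the omega class. Every probe set that the array annotation names for one of these genes was taken, in both deposited tables. This gave 10 probe sets of 13179 in all, 8 on the first array type and 2 on the second (Gsta3 and Gstt1), which stand for 9 of the 10 genes and for 9 of the 6136 genes that the annotation names singly. No probe set is named for Gsta2, and Gstm5 has 2. All 10 probe sets passed the filter on low values, although Gsta4 was above the floor on only 7 of 15 arrays.

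The kidneys came from C57BL/6 mice in 3 groups of 5: 30-month-old mice fed a calorie-restricted diet (CR), 30-month-old mice fed the control diet (OC) and 5-month-old mice fed the control diet (YC). Total RNA of each numbered kidney was hybridised to both array types, 30 arrays in all. The labels state neither the sex of the mice nor whether the numbers 1 to 5 within a group mark separate animals, so the p-values measure only the spread between these samples. The diet question is answered by CR minus OC and the age question by OC minus YC, while CR and YC differ in both age and diet.

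Glutathione transferases join the tripeptide glutathione to reactive molecules, which makes them more soluble and marks them for export. The alpha, mu, pi and theta classes act mainly on foreign compounds and on products of lipid peroxidation, whereas the zeta enzyme also works in tyrosine breakdown and the omega enzyme reduces thiol and arsenic compounds. The kidney tubule both conjugates such molecules and processes the conjugates that arrive from the blood. Many genes of the alpha and mu classes are known targets of the transcription factor Nrf2, which binds a sequence called the antioxidant response element.

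Values are deposited intensities, arbitrary units of probe brightness with no background of their own given. For the tests each array was scaled to the mean of its table, values under a floor (1103 on the first array type, 1815 on the second) were set to it, and log2 was taken. A probe set counts as called where limma's p, adjusted over the 4518 probe sets tested on both types, was under 0.05. Arrays of a group correlated with r of 0.868 to 0.970. Kidneys numbered 1 to 3 and those numbered 4 and 5 separated in every group on the first component of the within-group variation, which held 37.0% of that variance, and the labels do not say what these number sets are. Diet changes within each set are therefore given beside those of each probe set. On the second table, targets measured by several probe sets with the suffixes i, f, s or r have young values that appear exchanged between them: 25 of 26 such pairs change their order between OC and YC, against 0 of 27 between CR and OC. Gsta3 and Gstt1 are single s probe sets, a class in which 2.82% of 957 probe sets were called with age, against 3.71% of 1537 on the first table. The tissue carried the defining kidney transcripts, with the phosphate transporter Slc34a1 at intensities of 51937 to 68843 in CR, 53810 to 71136 in OC and 60057 to 67683 in YC kidneys.

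In calorie-restricted kidneys 1 of the 10 probe sets was called higher than in age-matched controls, that of the alpha-class gene Gsta4, and none was called lower. This call depends on the CR kidneys for its place among the tested probe sets, since Gsta4 was above the floor in 5 CR, 2 OC and 0 YC kidneys and needed 5 arrays. The background share for this comparison is 2.61% of all tested probe sets called in either direction, with 0.907% higher and 1.70% lower. The other alpha gene, Gsta3, and the theta gene Gstt1 had the next largest differences, both positive, and neither passed the threshold. All 4 mu-class probe sets and Gstp1 had differences below 0, and none passed. Taking the brightest probe set of each gene, the median difference of the 9 genes was 0.24 on the log2 scale, against 0.03 over all tested probe sets. Whether one class differs from another in its response was not tested.

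Gsta4 encodes the alpha-class enzyme that conjugates 4-hydroxynonenal, an aldehyde formed when membrane lipids are peroxidised. Its intensities were 2459, 2892, 4356, 3929 and 4871 in CR kidneys, against 1008, 410, 1005, 1495 and 1616 in OC kidneys and 785, 734, 769, 528 and 510 in YC kidneys. Every CR kidney lay above the highest OC kidney, and the groups did not overlap. The means were 3701 ± 1006 in CR, 1107 ± 478 in OC and 665 ± 135 in YC (SD, n = 5 each). With values at the floor counted there, which applies to 3 OC, all 5 YC and no CR kidneys, the CR minus OC difference was 1.498 ± 0.18 (log2, SE), a 2.83-fold difference with a 95% interval of 2.16 to 3.69 (limma, adjusted p = 0.000174). Since 3 OC kidneys lay at the floor, this fold understates the difference. Values set to the floor do not vary, and the 3 groups share 1 estimate of spread. The spread behind the SE, interval and p-value is therefore understated too. The CR minus YC difference was 1.70 (log2, 95% interval 1.31 to 2.09), or 3.25-fold (limma, adjusted p = 8.59e-06). With all YC kidneys at the floor, this estimate and its spread are understated as well. The CR minus OC difference within the number sets was 1.51 for numbers 1 to 3 and 1.49 for numbers 4 and 5. The 3 OC kidneys at the floor were those numbered 1 to 3. The value of 1.51 is therefore understated, and the sizes in these sets cannot be compared. Mean intensities were 3236 in CR and 808 in OC for numbers 1 to 3, and 4400 and 1556 for numbers 4 and 5. With numbers 4 and 5 alone the call was lost (adjusted p = 0.0542), in a fit that called 9 probe sets in all. With the floor doubled, all OC and YC kidneys lay at it, so the CR minus OC and CR minus YC differences were equal by construction, at 0.70. Both stayed called, but the spread within groups then came from CR alone, so this setting adds no support.

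Gsta3 encodes an alpha-class enzyme found widely in mouse tissues, known for conjugating the epoxide of aflatoxin. Its intensities were 16869, 16278, 12323, 19727 and 25660 in CR kidneys, against 12289, 9967, 9889, 13053 and 11271 in OC kidneys and 7489, 9915, 9202, 8301 and 10665 in YC kidneys. Of the 5 CR kidneys, 4 lay above the highest OC kidney, and CR kidney 3 fell within the OC range. CR averaged 18171 ± 4949, OC 11294 ± 1398 and YC 9114 ± 1261 (SD, n = 5 each). The CR minus OC difference was 0.65 ± 0.17 (log2, SE), 1.57-fold with a 95% interval of 1.22 to 2.03, and missed the threshold (limma, adjusted p = 0.0607). It was 0.49 within numbers 1 to 3 and 0.89 within numbers 4 and 5. The call was made when number set was a term in the model (adjusted p = 0.0187) and without CR kidney 3 (difference 0.78, adjusted p = 0.01999).

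Between CR and YC the groups did not overlap for Gsta3, with a difference of 0.96 ± 0.17 (log2, SE) or 1.95-fold (limma, adjusted p = 0.00221). Gsta3 and Gsta4 were the 2 of 10 probe sets called higher in CR than in YC and none was called lower, while 5.71% of all tested probe sets were called in either direction, 2.94% higher and 2.77% lower in CR. Within numbers 4 and 5 alone the Gsta3 difference from YC was 1.26 and lost its call (adjusted p = 0.0582). Across the 15 kidneys the log2 values of Gsta3 and Gsta4, measured on different array types, had a Pearson r of 0.84, and 0.31 after the group means were taken out. The pattern was not particular to the alpha pair. With the theta gene Gstt1 the same measures were 0.74 and 0.82 for Gsta3, and 0.61 and 0.37 for Gsta4. These points share the groups and the number sets.

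Gstt1, the theta enzyme that acts on small halogenated molecules, had intensities of 4768, 5260, 3520, 8371 and 9329 in CR kidneys, against 3593, 2980, 2074, 4939 and 3246 in OC kidneys and 2356, 3501, 5399, 4780 and 4816 in YC kidneys. CR kidneys 4 and 5 were the highest of all 15, and CR kidneys 1 and 3 lay within the OC range. The CR minus OC difference was 0.86 ± 0.29 (log2, SE) with an interval of 0.23 to 1.48 and did not pass (limma, adjusted p = 0.171). Within numbers 1 to 3 it was 0.66, and within numbers 4 and 5 it was 1.14. With number set as a term it passed (adjusted p = 0.0348). OC minus YC was -0.31 ± 0.29 (limma, adjusted p = 0.687).

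**Figure D1:**
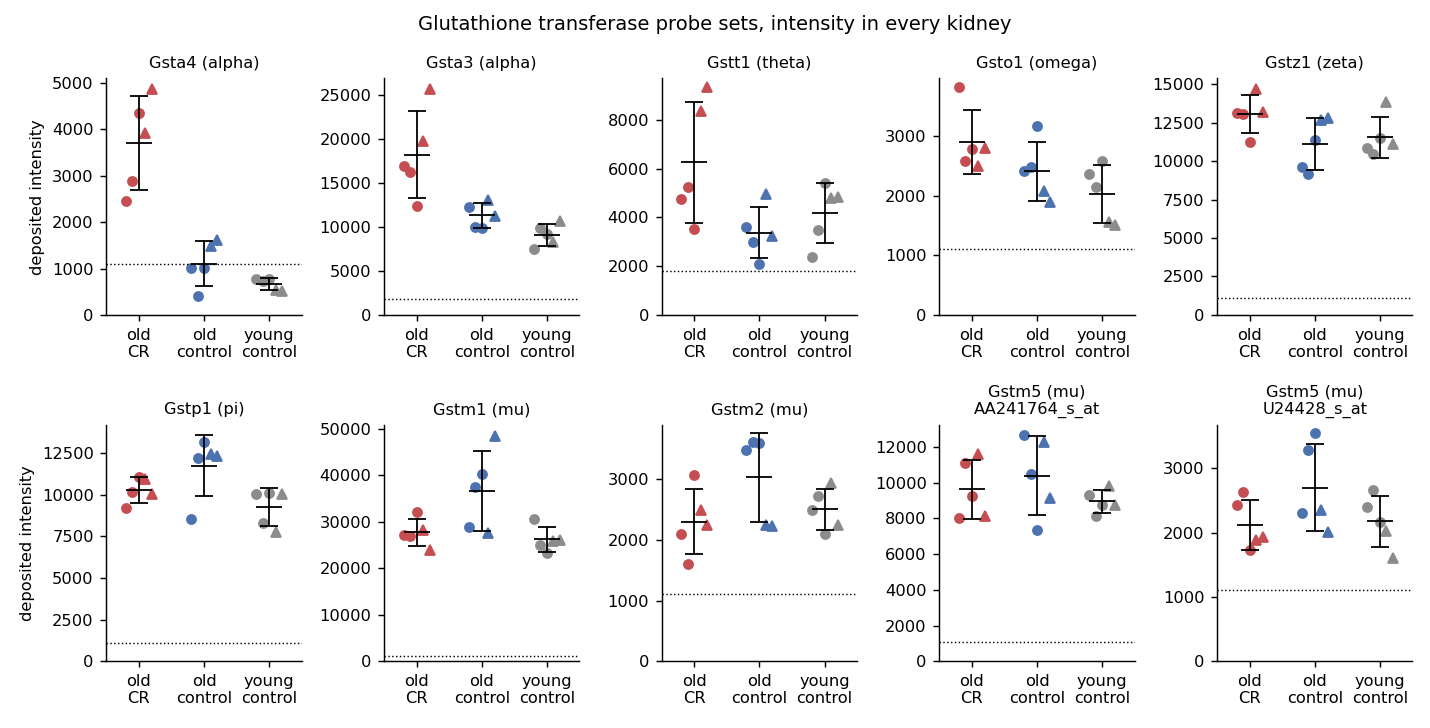
Deposited intensity (arbitrary units, linear axes that start at 0) of each glutathione transferase probe set in CR, OC and YC kidneys, with circles for numbers 1 to 3, triangles for numbers 4 and 5, bars for the mean ± SD of 5 kidneys and a dotted line at the floor. Gsta4 lies between 2459 and 4871 in every CR kidney, above all OC kidneys, and the CR and OC ranges of the other probe sets overlap. The share of all tested probe sets without such overlap was not counted.

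Promoter sequence is shown for 3 genes. Gsta3 and Gstt1 had the largest diet differences after Gsta4, and Gstm5 is the other member whose window holds the core of the antioxidant response element. The windows run from 250 bases before to 50 bases after the annotated start and come from RefSeq (GRCm38.p6). The core was searched on both strands as TGACNNNGC. Capitals mark the core, and the sequences are written in the direction of transcription: Gsta3 at chr1:21240335-21240634 (plus strand), Gstm5 at chr3:107895604-107895903 (plus strand) and Gstt1 at chr10:75797682-75797981 (minus strand).
Gsta3: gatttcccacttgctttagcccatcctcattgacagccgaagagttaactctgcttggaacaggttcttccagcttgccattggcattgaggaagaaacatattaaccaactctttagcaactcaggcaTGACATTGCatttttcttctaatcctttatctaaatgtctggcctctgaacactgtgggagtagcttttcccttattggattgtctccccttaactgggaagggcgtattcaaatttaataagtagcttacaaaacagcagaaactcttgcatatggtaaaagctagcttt
Gstm5: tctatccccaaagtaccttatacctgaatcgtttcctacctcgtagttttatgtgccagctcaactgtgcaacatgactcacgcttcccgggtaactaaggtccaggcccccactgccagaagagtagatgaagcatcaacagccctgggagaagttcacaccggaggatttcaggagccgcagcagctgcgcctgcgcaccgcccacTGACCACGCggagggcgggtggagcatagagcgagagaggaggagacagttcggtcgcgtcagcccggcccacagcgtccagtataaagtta
Gstt1: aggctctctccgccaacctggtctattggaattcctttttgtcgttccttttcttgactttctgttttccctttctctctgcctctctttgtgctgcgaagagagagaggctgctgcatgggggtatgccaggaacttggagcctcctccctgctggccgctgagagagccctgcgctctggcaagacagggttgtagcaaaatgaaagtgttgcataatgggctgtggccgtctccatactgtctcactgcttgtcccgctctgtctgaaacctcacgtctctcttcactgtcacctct
The core begins 121 bases before the start of Gsta3 and 42 bases before the start of Gstm5. It was found in 2 of the 10 windows available for 8 of the genes, and in 12.4% of all 32851 promoter windows of the same length. The Gstt1 window holds no match. Gsta3 had a difference of 0.65 with the diet, and the Gstm5 probe sets AA241764_s_at and U24428_s_at had -0.10 and -0.34 (log2). A match describes letters in the window and no binding was measured. Gsta4 is named only, without a window.

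**Figure D2:**
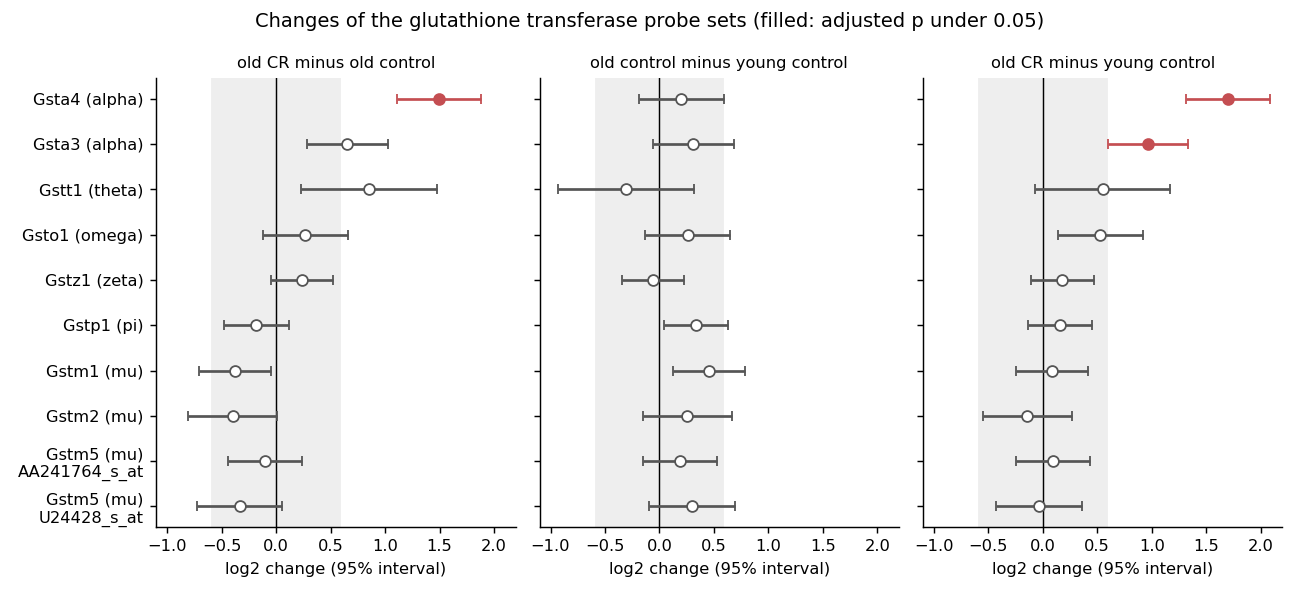
Log2 differences of each glutathione transferase probe set for CR minus OC, OC minus YC and CR minus YC, with 95% limma intervals, filled points for adjusted p under 0.05 and grey shading for changes within 1.5-fold. Gsta4 stands at 1.498 for CR minus OC, Gsta3 at 0.65 and Gstt1 at 0.86, and the 4 mu-class probe sets lie between -0.40 and -0.10.

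The mu-class probe sets were lower on average in CR than in OC kidneys without passing the test. Gstm1, an abundant mu enzyme that acts on aromatic electrophiles and quinones, had intensities of 27276, 26910, 32238, 28295 and 24064 in CR kidneys, against 28967, 37553, 40415, 27689 and 48514 in OC kidneys and 30644, 25100, 23403, 25888 and 26164 in YC kidneys. The OC kidneys spread most, with 3 of them above every CR and YC kidney and the other 2 inside those ranges. CR minus OC was -0.38 ± 0.16 (log2, SE; limma, adjusted p = 0.268), and OC minus YC was 0.46 ± 0.16 (limma, adjusted p = 0.124). In the number sets the CR minus OC difference was -0.30 and -0.50. Gstm2, a second mu enzyme, had 2092, 1610, 3071, 2495 and 2240 in CR kidneys, against 3485, 3612, 3596, 2249 and 2222 in OC kidneys and 2496, 2728, 2102, 2945 and 2247 in YC kidneys. In OC the kidneys numbered 1 to 3 were high and those numbered 4 and 5 lay inside the CR range. Its CR minus OC difference of -0.40 ± 0.19 (log2, SE; limma, adjusted p = 0.355) was -0.71 within numbers 1 to 3 and 0.07 within numbers 4 and 5, so the direction turned between the sets.

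The 2 probe sets of Gstm5, a mu-class gene whose mouse product is prominent in brain and testis, are given separately. AA241764_s_at gave 8042 to 11593 (median 9251) in CR, 7346 to 12645 (median 10491) in OC and 8125 to 9807 (median 8767) in YC kidneys. Its differences were -0.10 ± 0.16 for CR minus OC (limma, adjusted p = 0.825) and 0.19 ± 0.16 for OC minus YC (limma, adjusted p = 0.625). U24428_s_at gave 1726 to 2628 (median 1940) in CR, 2013 to 3553 (median 2349) in OC and 1609 to 2668 (median 2173) in YC kidneys, with -0.34 ± 0.19 for CR minus OC (limma, adjusted p = 0.436). Within numbers 1 to 3 and within numbers 4 and 5, CR minus OC was -0.08 and -0.13 for AA241764_s_at and -0.43 and -0.19 for U24428_s_at. Both had negative diet differences and positive age differences, and neither was called. Genes of the mu class are close in sequence, and probe sequences were not used here, so how much a probe set reads of its relatives is unknown.

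The pi, omega and zeta genes had no called difference. Gstp1, the pi enzyme known for its rise in tumours and its binding of the kinase JNK, gave 9181, 10151, 11074, 10908 and 10021 in CR kidneys, against 8504, 12196, 13156, 12430 and 12287 in OC kidneys and 10050, 8282, 10083, 7747 and 10059 in YC kidneys. In OC, 4 of 5 kidneys lay above every CR and YC kidney and OC kidney 1 lay below every CR kidney. The differences were -0.18 ± 0.14 for CR minus OC (limma, adjusted p = 0.581) and 0.34 ± 0.14 for OC minus YC (limma, adjusted p = 0.225). Within numbers 1 to 3 and within numbers 4 and 5, CR minus OC was -0.14 and -0.25 and OC minus YC was 0.23 and 0.49. Without OC kidney 1 the OC minus YC difference was 0.45 and was called (limma, adjusted p = 0.0434). The probe set is of the f type, which reads a family of transcripts, so other pi-class copies may contribute.

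Gsto1, the omega enzyme, gave 3824, 2584, 2777, 2488 and 2790 in CR kidneys, against 2410, 2469, 3168, 2075 and 1894 in OC kidneys and 2356, 2141, 2576, 1550 and 1510 in YC kidneys. The groups overlapped, and CR kidney 1 was the highest of the 15. CR minus OC was 0.27 ± 0.18 (limma, adjusted p = 0.536) and CR minus YC was 0.53 ± 0.18 (limma, adjusted p = 0.121). Within numbers 1 to 3 CR minus OC was 0.18, and within numbers 4 and 5 it was 0.40. CR minus YC was 0.36 and 0.79 in these sets and passed with number set as a term (adjusted p = 0.0215).

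Gstz1, the zeta enzyme that isomerises maleylacetoacetate in tyrosine breakdown, was the one probe set that was both bright and stable. Bright means a mean log2 level over the 15 kidneys above the 90th percentile of the tested probe sets of its table, and stable means that the 95% intervals of both the diet and the age change lie within 1.5-fold either way. Its intensities were 13105, 13066, 11250, 14690 and 13205 in CR kidneys, against 9614, 9178, 11339, 12671 and 12808 in OC kidneys and 10833, 10435, 11510, 13837 and 11102 in YC kidneys. Of the 5 CR kidneys, 4 lay above the highest OC kidney, and CR kidney 3 fell within the OC range. The mean level stood at the 91.2 percentile. The diet difference was 0.31 within numbers 1 to 3 and 0.12 within numbers 4 and 5 (log2), and 0.24 ± 0.13 (SE) over all. The interval of the diet change ran from 0.968-fold to 1.44-fold (limma, adjusted p = 0.448) and that of the age change from 0.789-fold to 1.17-fold (limma, adjusted p = 0.883). No probe set met both conditions when CR kidney 3, OC kidney 4 or OC kidney 5 was left out, with numbers 1 to 3 alone, or with the floor doubled or 10 arrays required above it.

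Gstm1 was bright, at a percentile of 97.6, and was not stable with the diet or with age. Its diet interval ran down to -0.71 and its age interval up to 0.79 on the log2 scale. Gstm5 AA241764_s_at was stable at a percentile of 88.8, with a diet interval of 0.737-fold to 1.18-fold and an age interval of 0.902-fold to 1.45-fold. Gstp1 lay just under the limit of brightness at 89.9 and its age interval reached 1.55-fold. Gsta3 had a percentile of 86.1 in the second table, Gstt1 58.8, Gstm2 55.2, Gsto1 51.3, Gstm5 U24428_s_at 49.0 and Gsta4 34.6. Percentiles describe how bright a probe set is in its table, not how much RNA one gene has relative to another.

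**Figure D3:**
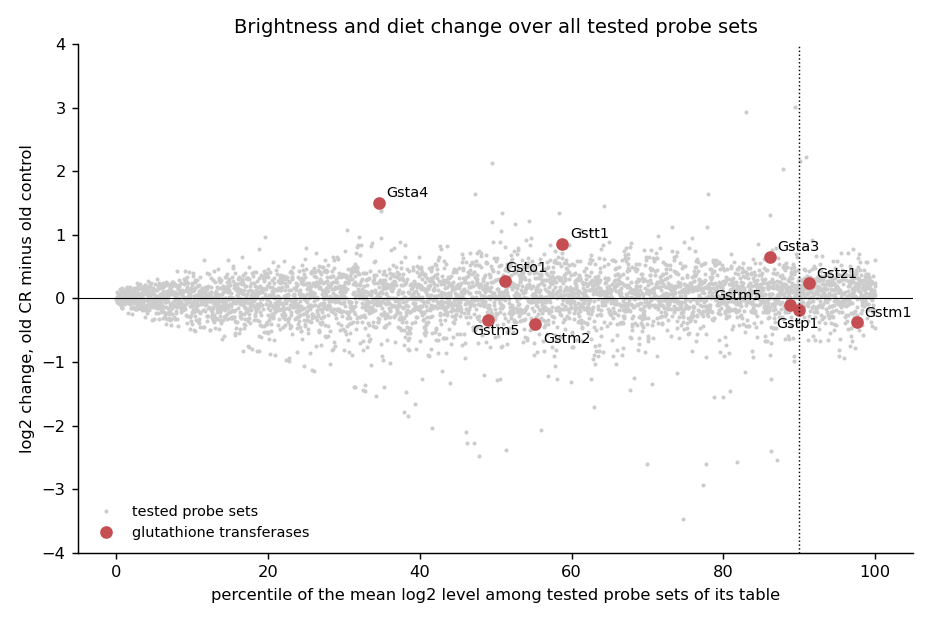
CR minus OC log2 difference (vertical axis) against the percentile of the mean log2 level among the tested probe sets of its table (horizontal axis, dotted line at the 90th) for all 4518 tested probe sets in grey, with the glutathione transferases in red. Gsta4 lies at the 34.6 percentile with a difference of 1.498, whereas Gstm1 and Gstz1 lie to the right of the line with -0.38 and 0.24.

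With age, no glutathione transferase probe set was called in either direction (limma), while 5.16% of all tested probe sets were, 2.99% higher and 2.17% lower in OC. At an unadjusted p under 0.05 in limma there were 2 of 10, Gstm1 and Gstp1, both higher on average in OC, against 16.4% of all tested probe sets at that threshold. The OC minus YC difference was 0.31 ± 0.17 for Gsta3 (limma, adjusted p = 0.409) and 0.26 ± 0.18 for Gsto1 (limma, adjusted p = 0.544). Both were higher in OC than in the YC kidney of the same number in 5 of 5 cases. For the other member probe sets this held in 1 (Gstz1) to 4 (such as Gstm1) of 5 cases. The labels state no pairing, and the share of all tested probe sets with 5 of 5 was not counted. Gsta4 had an OC minus YC difference of 0.20 ± 0.18 (limma, adjusted p = 0.659), with all YC kidneys at the floor. The median age difference over the 9 genes was 0.25, against -0.04 over all tested probe sets. CR minus OC and OC minus YC share the OC kidneys.

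**Figure D4:**
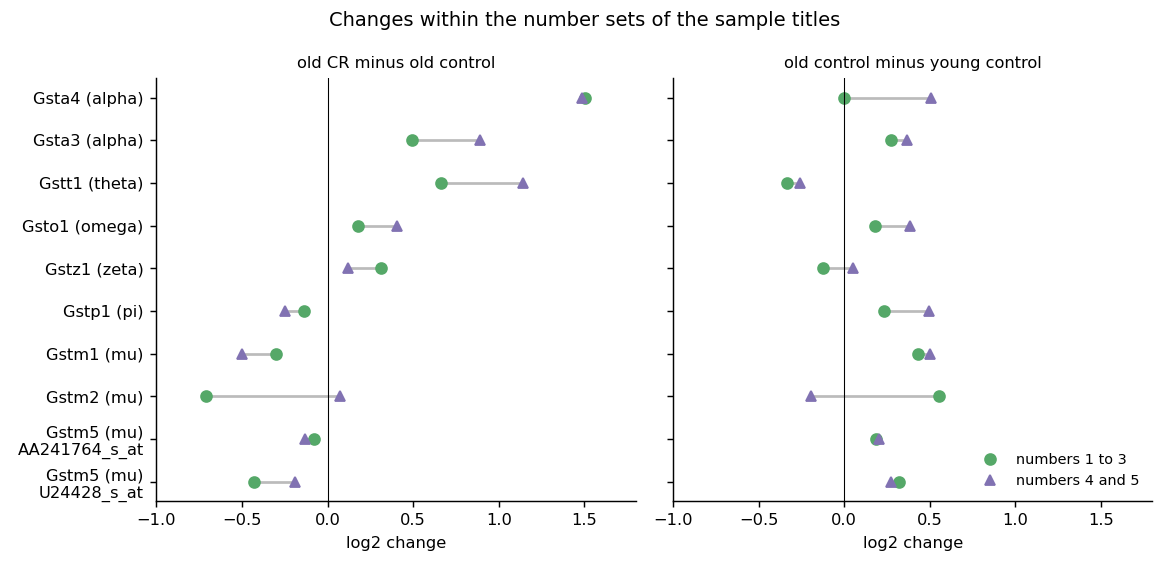
Log2 difference of each glutathione transferase probe set for CR minus OC (left) and OC minus YC (right), within kidneys numbered 1 to 3 (circles) and those numbered 4 and 5 (triangles). For CR minus OC Gsta4 is at 1.51 and 1.49 in the 2 sets, and Gstm2 is at -0.71 and 0.07. The Gsta4 value for numbers 1 to 3 is understated, since those OC kidneys lay at the floor.

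Among related genes, the diet calls were single members of larger lists. A list of other glutathione transferases, their microsomal relatives and proteins that share their fold had a probe set for 8 of 26 genes, none of them of the kappa class. The 6 tested were Gstt2, Mgst2, Mgst3, Ltc4s, the chloride channel protein Clic4 and the elongation factor Eef1g, and none was called, with a median diet difference of -0.03. The largest was Mgst3, a microsomal member, at 0.98 ± 0.37 by aa518117_s_at (limma, adjusted p = 0.223). The other probe sets of Mgst3 were not above the floor on any array. Of 4 tested genes of glutathione synthesis, recycling and breakdown, none was called with the diet or with age, and their medians were -0.10 and -0.25. Gclc, the catalytic subunit of the rate-limiting step of glutathione synthesis, was at -0.25 ± 0.34 by its brighter probe set (limma, adjusted p = 0.790). Of 15 tested genes on a list of peroxidases, thioredoxins and their reductases, which also holds catalase (Cat) and the superoxide dismutases Sod1, Sod2 and Sod3, none was called, with medians of 0.03 for the diet and -0.22 for age.

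Of 10 tested genes on the list of Nrf2 and its targets, 1 was called higher with the diet, the haem-degrading enzyme Hmox1. Its probe set AA710574_f_at was not above the floor on any array. The call came from m33203_s_at, with intensities of 1024 to 5884 in CR, against 791 to 1765 in OC and 594 to 1004 in YC kidneys. The CR and OC ranges overlapped, with 4 CR, 3 OC and 0 YC kidneys above the floor (difference 1.37 ± 0.34, limma, adjusted p = 0.0439). As with Gsta4, this probe set passed the filter on low values only with the CR kidneys counted. All YC and 2 OC kidneys lay at the floor, so the spread behind the SE and p-value is understated. Nqo1, a classical target of that factor, was not above the floor, and Nfe2l2, which encodes it, was at 0.15 ± 0.22 (limma, adjusted p = 0.819). The list's median diet difference was 0.06. Me1, which makes NADPH, was lower in CR than in YC by -0.70 ± 0.18 (limma, adjusted p = 0.0261).

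In the tyrosine pathway that holds Gstz1, 1 of 4 tested genes was called with the diet. Hpd, the dioxygenase of its second step, had intensities of 5811 to 10017 in CR, against 1697 to 3987 in OC and 795 to 2849 in YC kidneys, with no overlap between CR and OC (difference 1.45 ± 0.29, limma, adjusted p = 0.0105). Fah, the enzyme after Gstz1, was at 0.24 ± 0.15 (limma, adjusted p = 0.489). In the aldehyde detoxification list, 1 of 8 tested genes was called, the retinaldehyde dehydrogenase Aldh1a1, with 3583 to 5157 in CR, 1960 to 3399 in OC and 931 to 1582 in YC kidneys. It was higher in CR than OC by 0.70 ± 0.16 (limma, adjusted p = 0.0331) and higher in OC than YC by 1.07 ± 0.16 (limma, adjusted p = 0.000391).

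**Figure D5:**
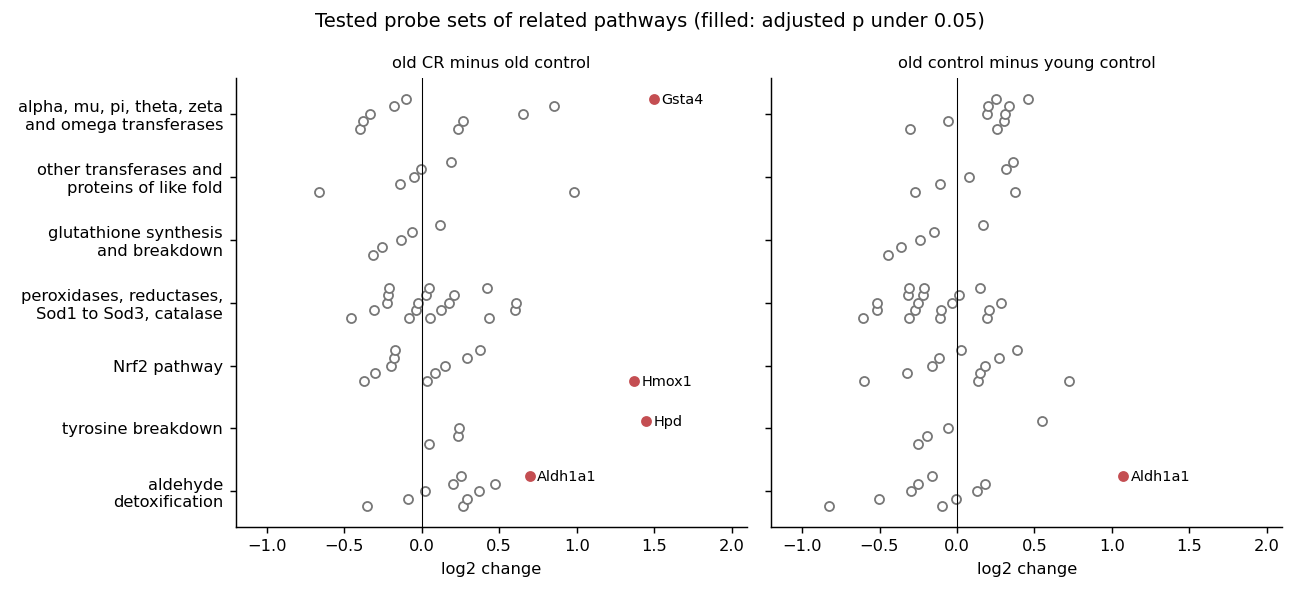
Log2 differences for CR minus OC (left) and OC minus YC (right) in the glutathione transferases and the related lists, 1 point per tested probe set, filled where adjusted p is under 0.05. Hmox1 at 1.37, Hpd at 1.45 and Aldh1a1 at 0.70 are the called genes of the related lists for CR minus OC, and Aldh1a1 at 1.07 for OC minus YC.

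The 5 genes whose log2 values over the 15 kidneys were most like those of Gsta4 were Axin1 (Pearson r 0.95), Cyp2d26 (0.93), Mef2d (0.91), Slc22a23 (0.90) and Plin2 (0.89). All are on the first table, and the points share the groups. These genes were chosen for a pattern like that of Gsta4, so their group values are a description and are given without a test. Cyp2d26, a drug-metabolising cytochrome, had 8331 to 21830 in CR, against 4858 to 8735 in OC and 5023 to 6747 in YC kidneys. Axin1, a scaffold of Wnt signalling, had 1401 to 2032 in CR and was at the floor in all OC and YC kidneys, so that it passed the filter through the CR kidneys alone.

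Some cell markers differed between the same groups, and others did not. Whole kidney was measured, so fewer cells of a type and less RNA per cell cannot be told apart. Proximal tubule markers (7 of 12 genes measured) had summed intensities of 219200 to 363400 in CR, 206900 to 379900 in OC and 242400 to 406800 in YC kidneys, and 0 of 7 were called with the diet. Loop, distal tubule and collecting duct markers (7 of 11 genes) summed to 138200 to 169300 in CR, 112100 to 120700 in OC and 133000 to 149800 in YC kidneys, and Egf was called higher with the diet. Leukocyte markers (11 of 11 genes) summed to 39220 to 68220 in CR, 121100 to 220600 in OC and 23870 to 31730 in YC kidneys, with Cd74, H2-Ab1, Igha, Ighm and Jchain called lower with the diet and Adgre1, Cd79a and Csf1r not above the floor. The other tested leukocyte markers were not called with the diet: Ptprc, common to leukocytes, was at 0.00 ± 0.16, with 8839 to 12236 in CR and 7938 to 11662 in OC kidneys, Cd68 was at -0.34 and Lyz2 at -0.92 (limma, adjusted p = 1, 0.482 and 0.142). Liver markers (4 of 6 genes) summed to 16710 to 22380 in CR, 13340 to 17300 in OC and 5448 to 27910 in YC kidneys, with none called with the diet and Apoa1 not above the floor. Serpina1a, called between CR and YC, belongs to the targets whose young values appear exchanged. Fibroblast and matrix markers (7 of 7 genes) summed to 10330 to 19850 in CR, 13470 to 22780 in OC and 6327 to 11460 in YC kidneys. Of the 3 tested Col1a1 probe sets, u08020_f_at was called higher with the diet (1.07 ± 0.24, limma, adjusted p = 0.02403). It passed the filter on low values only with the CR kidneys counted. The other 2 stood at 0.48 and -0.39 and were not called. Fat markers (4 of 6 genes) summed to 5821 to 17900 in CR, 8168 to 18200 in OC and 8165 to 13070 in YC kidneys, with none called. Tested genes were 1 of 6 endothelial (Kdr), 3 of 6 smooth muscle, 2 of 6 adrenal and 1 of 3 red blood cell markers. None of these was called with the diet, and no glomerular marker was tested. Kdr was at -0.55 ± 0.24 (limma, adjusted p = 0.305), and the endothelial genes Cdh5, Flt1 and Pecam1 were not above the floor. The untested genes of these lists give no result. The part of these markers in the transferase differences was not tested.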

How the data were processed

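Kidney RNA of 15 numbered samples was measured on 2 array types, 30 arrays in all. The deposited values are intensities per probe set in whole numbers, 20.8% to 26.6% negative on the first type and 29.2% to 35.9% on the second. How the deposited intensities were computed, corrected for background and scaled is not given in the sources used here. Samples were grouped by their titles, and the number of arrays limits the precision.

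Each array was scaled to its table's mean after trimming 2% at each end (factors 0.997 to 1.01). Values were raised to a floor, the root mean square of a table's negative values (1103 and 1815), before log2 was taken. Control probe sets (122) and rows that are blank for young kidneys (77, of which 16 are not control probe sets) were omitted. Testing needed values over the floor on 5 or more arrays, met by 2609 and 1909 probe sets. The tables were scaled apart and joined through group and number. Among 112 genes present on both, 14 of 15 samples resembled their own other array most. One limma 3.58.1 model (lmFit, then eBayes; R 4.3.3) held the 3 groups, and p-values were adjusted by Benjamini and Hochberg's method across both tables. The calculation was tested on simulated data.

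Array annotation gave 7542 probe sets 1 symbol, 224 several and 5291 none, with 7525 updated by gene number from RefSeq (GRCm38.p6). The members and lists were chosen with earlier results of these data known. Named genes were all members, list genes called with diet or age, otherwise up to 3 brightest genes of a list, and the 5 genes most like a called member. Me1, Mgst3, Gclc, Nfe2l2, Nqo1, Fah and the marker Slc34a1 were named for their role after their values were seen.

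Same-numbered samples deviated together with r of -0.015 to 0.402 between CR and OC, 4 of 5 over 0.1, so their numbers were not taken as pairs. Between OC and YC r was 0.215 to 0.489, 5 of 5 over 0.1, which met the criterion for pairing used here, every r over 0.1, although 0 of 5 numbers matched best with their own and the labels state no pairing. Between CR and YC r was 0.069 to 0.400, 4 of 5 over 0.1, not taken as pairs. Alternatives were other scaling, floors, filters, transforms and moderation, the number as a block, the number sets, each table alone and each replicate left out. Leaving out targets with several i, f, s or r probe sets of the second table was added after the data were seen.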

Additional observations from a re-analysis of the deposited data

Results flagged for a closer look

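Within groups of 5 kidneys, 29 groups of member values were checked for a kidney far from the others, and 2 had a gap to the nearest kidney, as a share of the range, above Dixon's 95% critical value. By chance about 1 group in 20 does so. The value of Gsto1 in CR kidney 1 was 3824, with a gap of 0.738 of the range, and the other CR kidneys lay between 2488 and 2790. The value of Gstp1 in OC kidney 1 was 8504, with a gap of 0.829 of the range, and the other OC kidneys lay between 12196 and 13156.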

How the results depend on the processing

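Gsta4 remained called higher in CR than OC in 29 of 30 alternatives. Over all 30 the difference ran from 0.70 (floor doubled) to 1.75. The limma adjusted p ran from 2.23e-05 to 0.0542, the last with numbers 4 and 5 alone, where the call was lost. Requiring 10 arrays above the floor removed Gsta4 from the test. Its CR minus YC call held in 30 of 30. The doubled floor adds no support to either call, since it put all OC and YC kidneys at the same value. Gsta3 was called with the diet in 6 of 30 alternatives, which include quantile normalization (adjusted p = 0.0463), the floor doubled (0.0448) and each table on its own (0.0451); the cause was not tested.

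The number of member probe sets called higher with the diet (1) was 2 with quantile normalization, the floor doubled or each table alone, 3 with number set as a term, and 0 with 10 arrays required or with numbers 4 and 5 alone, and 1 to 2 with a replicate left out. Against YC it (2) was 1 with 10 arrays required, with numbers 4 and 5 alone and without second-table suffixes i, f, s and r, which removes Gsta3, and 2 with any replicate left out. For age it was 0 to 1 with a replicate left out.

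With the title number as a replicate block, 2 member probe sets were called higher with the diet (Gsta3 added, adjusted p = 0.0412) and 3 against YC (Gsto1 added, adjusted p = 0.0406), and no other member call changed under this block, the age comparison included. Samples matched best with their own number in 2 of 5 cases for CR and OC, 3 of 5 for CR and YC and 0 of 5 for OC and YC.

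Over all probe sets, diet calls (118) were 68 without a filter, 50 with 10 arrays required, 72 with only the groups compared, 224 with number set as a term, 253 with numbers 1 to 3, 9 with numbers 4 and 5, 32 without those suffixes, and 73 to 133 with a replicate left out, fewest without CR kidney 1. Age calls (233) were 146 with numbers 4 and 5, 62 without those suffixes, 150 without targets of several such probe sets (chosen after seeing the data), and 179 to 254 with a replicate left out. CR minus YC calls (258) were 439, 104, 110 and 169 with number set as a term, numbers 4 and 5, without those suffixes and without those targets, and 195 to 266 with a replicate left out.

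Bright and stable probe sets (1) were 0 with the floor doubled, 10 arrays required or numbers 1 to 3, 2 with the floor halved or without a filter, and 0 to 1 with a replicate left out. Differences that turned sign, none called, were Gstm2 CR minus OC (0.074) and OC minus YC (-0.194), Gstz1 OC minus YC (0.048) and Gstm5 U24428_s_at CR minus YC (0.084) with numbers 4 and 5. With a replicate left out, Gstz1 OC minus YC ran from -0.114 to 0.012 (above 0 without OC kidney 2 or YC kidney 4) and Gstm5 U24428_s_at CR minus YC from -0.139 to 0.043 (above 0 without CR kidney 3 or 4 or YC kidney 1 or 2).

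The floor limits Gsta4, Hmox1, Axin1 and Col1a1 u08020_f_at, whose differences and spread are understated, and Gsta4 in YC has only an upper bound.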
